A study of Arabidopsis thaliana with 6 samples.

Results

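Of 22746 Arabidopsis ATH1 probe sets, 5 lay at the bottom of the measured range on all 3 arrays of one genotype and clearly above it on all 3 arrays of the other. The deposited values are on a log2 scale, their lowest value on every array was 2.469, and this shared lowest value is called the floor here. A probe set, the group of probes that reads one transcript, was taken when all 3 arrays of one genotype were at 2.6 or less and all 3 arrays of the other at 2.9 or more. The arrays labelled bzip63-2 were at the floor for 2 of the 5 probe sets, AT4G15620 and XTH15, and the Ws arrays were at the floor for the other 3, WRKY33, STZ and the probe set 248964_at, for which no gene is named here. The members make up 0.00879% of all probe sets in the first direction and 0.0132% in the second. As a share of the probe sets at 2.6 or less on all 3 arrays of the genotype at the floor, they make up 0.0189% for bzip63-2 and 0.0293% for Ws. The 5 were chosen by these same log2 values, so they are described without a test. The deposited values carry no detection call, so "at the floor" does not mean that a transcript was absent. Some probe sets repeated a lowest value of their own above 2.6, and the limits leave these out. An example is 266292_at, with 2.792 on every array but bzip63-2 replicate 2.

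The plants were the Wassilewskija wild type (Ws) and bzip63-2 (line H3-2, FLAG_610A08), 1 T-DNA insertion line of the bZIP63 gene, with 3 arrays per genotype. Each array was hybridised with total RNA pooled from 5 plants that had grown for 25 days in short days (10 h light, 14 h dark), and the 4 youngest leaves were taken at the end of the night. The methods add the shoot apical meristem, which the labels do not name. The bZIP63 probe set had log2 values of 8.65, 8.55 and 8.78 in the arrays labelled bzip63-2, against 5.32, 5.51 and 5.91 in the Ws arrays. The insertion mutant thus had the higher values. The position of these probes against the T-DNA was not examined, and every direction below rests on the labels.

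bZIP63 is a transcription factor that is phosphorylated by the kinase SnRK1 when energy is low, and it takes part in the change of gene expression at the end of the night. XTH enzymes cut and rejoin xyloglucan chains between cellulose fibrils and so remodel the primary cell wall. WRKY33 and STZ (also called ZAT10) are transcription factors whose transcripts are known to accumulate within minutes of wounding, touch, cold or contact with microbes, and ERF, CBF and other WRKY genes are known to respond in the same way. AT4G15620 encodes a membrane protein of the CASP-like family, named CASPL1E2 in the RefSeq table, whose founding members organise the Casparian strip of the root.

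On all 3 arrays labelled bzip63-2, 10599 probe sets (46.6%) were at 2.6 or less, on all 3 Ws arrays 10248 (45.1%), and on all 6 arrays 9717 (42.7%). The array medians were 2.61 to 2.62, and correlations between arrays were 0.990 to 0.996. Ribulose bisphosphate carboxylase activase (RCA), a defining leaf transcript, was at 11.5 to 11.8 on all 6 arrays, whereas the root hair expansins EXPA7 and EXPA18 and the meristem gene CLV3 were at the floor on all 6. A probe set was named here for 1 of 11 leaf, 2 of 13 root and 1 of 17 shoot meristem markers, and for 0 of 16 markers of flower, pollen and seed. In such bulk samples, fewer cells of a type and less RNA per cell cannot be told apart.

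**Figure D1:**
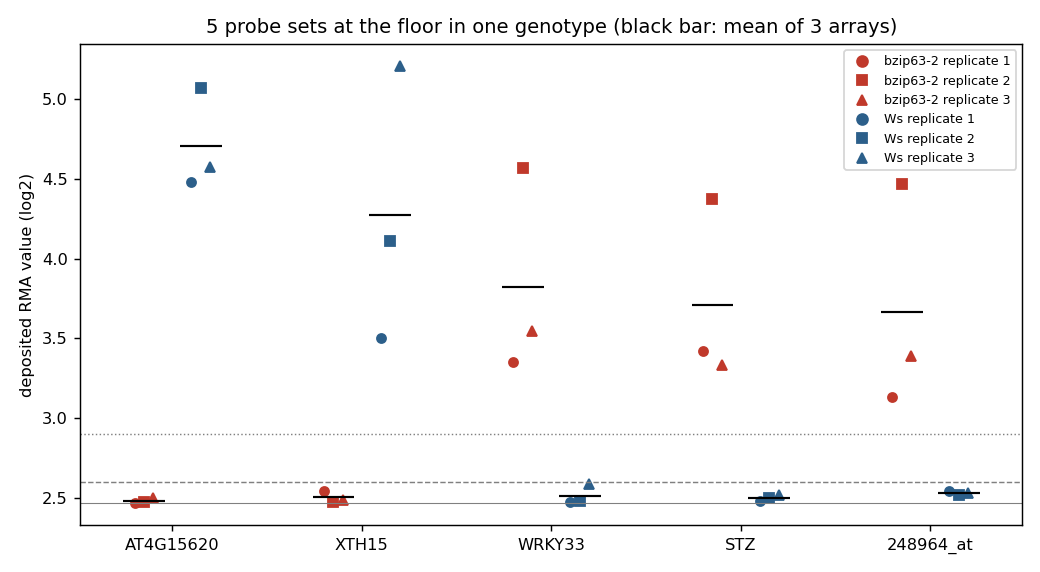
Deposited log2 values of the 5 probe sets on each array, the arrays labelled bzip63-2 in red on the left of each pair and the Ws arrays in blue on the right, with the mean of 3 arrays as a black bar. The solid line is the floor of 2.469, the dashed and dotted lines are the limits of 2.6 and 2.9, and for WRKY33, STZ and 248964_at the highest point is bzip63-2 replicate 2.

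AT4G15620 showed the widest separation of the 5. Its log2 values were 2.47, 2.47 and 2.50 in the arrays labelled bzip63-2, against 4.48, 5.07 and 4.57 in the Ws arrays. The means were 2.48 ± 0.02 in bzip63-2 and 4.71 ± 0.32 in Ws (SD, n = 3 arrays each), a log2 difference of -2.23. All 3 mutant arrays were at the floor, and the lowest Ws array stood 1.98 above the highest mutant array on the log2 scale. Because values cannot lie below the floor, the size of such a difference is a lower bound. With the genotype at the floor set to 2.6 and the other at the mean of its 3 arrays, AT4G15620 was at least 4.31-fold lower in bzip63-2. Here and below, a fold change given as "at least" is a bound for the floor side only. It does not cover the spread of the 3 brighter arrays. Ranked over all probe sets by log2 difference, AT4G15620 was the second lowest, after At2g30600, a BTB/POZ domain gene with a difference of -2.44. The adjacent genes AT4G15610 and AT4G15630 also encode CASP-like proteins, and whether the probes for AT4G15620 match their transcripts was not examined here. RefSeq names 39 genes of this family, and AT4G15620 was the only one with a probe set named here. It was named only through the study's own list of changed genes, and the platform table named no gene of the family. Its being the only one therefore says nothing about the rest of the family.

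XTH15 was the other probe set at the floor in bzip63-2. Its log2 values were 2.547, 2.48 and 2.49 in the arrays labelled bzip63-2, against 3.503, 4.11 and 5.21 in the Ws arrays. The mutant arrays lay within 0.07 of each other, while the Ws arrays spread over 1.71 with replicate 1 lowest and replicate 3 highest. The log2 difference was -1.77, from means of 2.51 ± 0.04 in bzip63-2 and 4.27 ± 0.86 in Ws (SD, n = 3 arrays each), and XTH15 was at least 3.19-fold lower in bzip63-2. Without Ws replicate 3 the log2 difference was -1.30, and without Ws replicate 1 it was -2.15. AT4G15620 did not share this spread, since its highest Ws array was replicate 2 and its Ws arrays differed by at most 0.59.

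Of the 33 XTH genes, 12 had a named probe set. XTH15 and XTH6 were among them only through the pairs of probe sets and loci that the study lists for its changed genes, so their direction is not independent evidence. XTH15 had to be separated. For 4 of the other 11 the arrays labelled bzip63-2 lay wholly below the Ws arrays and for none wholly above, while over all probe sets 3.23% lay wholly below and 6.81% wholly above. Without XTH6 this was 3 of 10. The median log2 difference of the 11 was -0.02, and over all probe sets it was 0.00. XTH16 had values of 4.05, 4.16 and 4.02 in bzip63-2 against 4.88, 4.57 and 5.39 in Ws, and XTH27 (EXGT-A3) had 6.02, 5.96 and 6.03 in bzip63-2 against 6.60, 6.42 and 7.16 in Ws. For both, Ws replicate 3 was the highest array, as for XTH15 and XTH6, and both stood far above the floor in bzip63-2. XTH33 was also wholly lower but differed in both respects. It had 2.915, 2.991 and 2.795 in bzip63-2 against 3.007, 3.38 and 3.157 in Ws, with Ws replicate 2 the highest. Another 4 members, XTH20, XTH21, XTH26 and XTH29, were at 2.6 or less on all 6 arrays, so XTH15 was the one member at the floor in a single genotype.

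The 3 probe sets at the floor in Ws had one array in common as their highest. WRKY33, a factor required for resistance to necrotrophic fungi and for synthesis of the phytoalexin camalexin, had log2 values of 3.35, 4.57 and 3.55 in the arrays labelled bzip63-2, against 2.48, 2.48 and 2.59 in the Ws arrays. The means were 3.82 ± 0.66 in bzip63-2 and 2.51 ± 0.06 in Ws (SD, n = 3 arrays each), a log2 difference of 1.31, and WRKY33 was at least 2.33-fold higher in bzip63-2. Replicate 2 stood 1.02 above the next mutant array, while replicates 1 and 3 lay within 0.20 of each other. Ws replicate 3, at 2.589, was just inside the lower limit and set WRKY33 closer to it than any other of the 5.

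STZ, a zinc finger repressor known for salt and cold responses, had log2 values of 3.42, 4.37 and 3.34 in the arrays labelled bzip63-2, against 2.48, 2.50 and 2.52 in the Ws arrays. Replicate 2 was again highest, by 0.96, and the Ws arrays lay within 0.04 of each other. The log2 difference was 1.21, from means of 3.71 ± 0.58 in bzip63-2 and 2.50 ± 0.02 in Ws (SD, n = 3 arrays each), which is at least 2.16-fold higher in bzip63-2. The probe set 248964_at had 3.13, 4.47 and 3.39 in the arrays labelled bzip63-2, against 2.54, 2.52 and 2.53 in the Ws arrays. Its log2 difference was 1.13, from means of 3.66 ± 0.71 in bzip63-2 and 2.53 ± 0.01 in Ws (SD, n = 3 arrays each), at least 2.09-fold higher in bzip63-2. Its lowest mutant array, at 3.13, was closer to the upper limit than that of any other of the 5. Ranked from the highest log2 difference down, WRKY33 was number 10, STZ number 13 and 248964_at number 16 of all probe sets.

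**Figure D2:**
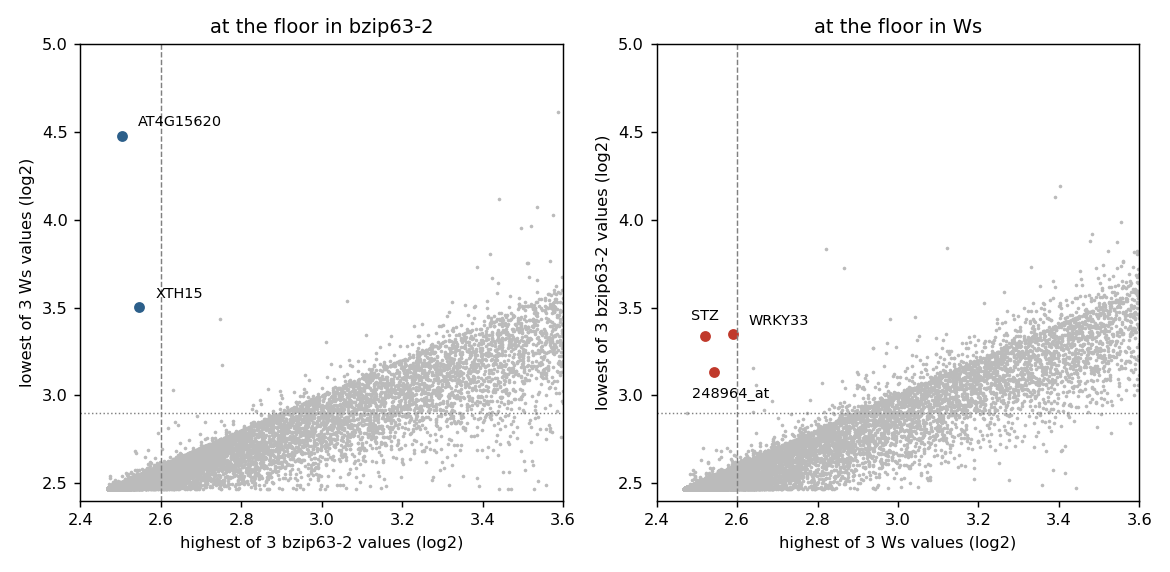
For all 22746 probe sets, the highest of the 3 values of one genotype on the horizontal axis and the lowest of the 3 values of the other on the vertical axis (log2), with the limits of 2.6 (dashed) and 2.9 (dotted). The upper left corner of the left panel holds AT4G15620 and XTH15, that of the right panel WRKY33, STZ and 248964_at, and the axes stop at 3.6 and 5.0, beyond which lie further probe sets.

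Just outside the limits lay probe sets of the same kind. ERF105 (AT5G51190), an AP2/ERF transcription factor gene, had 2.917, 3.788 and 2.899 in the arrays labelled bzip63-2, against 2.476 on each Ws array, and missed the upper limit by 1 array. The second probe set of At2g30600 had 2.54, 2.48 and 2.63 in bzip63-2, against 3.03, 3.66 and 3.79 in Ws, and missed the lower limit by 1 array. Both were taken for lying near the limits on these same values, so their direction was set by that choice. For ERF105 replicate 2 was the highest mutant array. The other probe set of At2g30600 had 3.502, 3.37 and 3.593 in bzip63-2, against 5.78, 5.661 and 6.343 in Ws. It lay above the upper limit in both genotypes, so only the second probe set read this gene near the floor in bzip63-2. Moving the limits to 2.7 and 2.8 together added 5 probe sets at the floor in bzip63-2, among them the clock gene PRR7 with a log2 difference of -0.32, and 6 at the floor in Ws. Of these 6, AT1G19960 had the largest log2 difference, 1.00, and its highest mutant array was replicate 3, with 3.502, 3.15 and 4.23 in bzip63-2 against 2.64, 2.62 and 2.64 in Ws.

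For the 3 probe sets at the floor in Ws, bzip63-2 replicate 2 carried a large share of the higher values. Without it the log2 differences were 0.93 for WRKY33, 0.88 for STZ and 0.73 for 248964_at, the last less by over 1.5 times. Over all probe sets, replicate 2 stood at least 0.9 above both other arrays of its genotype for 21 probe sets, against 13 for replicate 1 and 3 for replicate 3, and WRKY33, STZ and 248964_at were 3 of the 21. Among the Ws arrays the same count was 0, 0 and 7. With 0.5 in place of 0.9 the counts were 30, 69 and 18 for bzip63-2 replicates 1 to 3. For Ws replicates 1 to 3 they were 6, 25 and 119, so Ws replicate 3 then had the most. Among probe sets whose bzip63-2 arrays differed, replicate 2 was the highest for 30.6%. The shares were 30.2% for replicate 1 and 33.5% for replicate 3. Of the 18 others among the 21, 6 had all arrays labelled bzip63-2 above all Ws arrays, against 6.81% of all probe sets, and 12 overlapped. A high replicate 2 entered both this choice and this count, and nothing is read from it. Only 3 of the 21 had a named gene, WRKY33, STZ and AT4G27280, annotated by the study as an EF-hand calcium-binding protein. AT4G27280 had log2 values of 5.23, 6.69 and 5.75 in the arrays labelled bzip63-2, against 3.72, 3.68 and 4.20 in the Ws arrays. A pair of markers of senescing leaves were also highest in replicate 2, SAG29 with 2.54, 2.95 and 2.54 in bzip63-2 against 2.56, 2.54 and 2.48 in Ws, and NAC6 (ORE1) with 2.63, 2.88 and 2.77 in bzip63-2 against 2.50, 2.51 and 2.50 in Ws. Both stayed close to the floor, and SAG29 overlapped between the genotypes. NAC6 was named only through the study's list of changed genes, so its direction is not independent evidence. SAG29 and NAC6 were the only ones of 7 such markers with a named probe set. Nothing about senescence is read from them, and their part in the result was not tested.

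**Figure D3:**
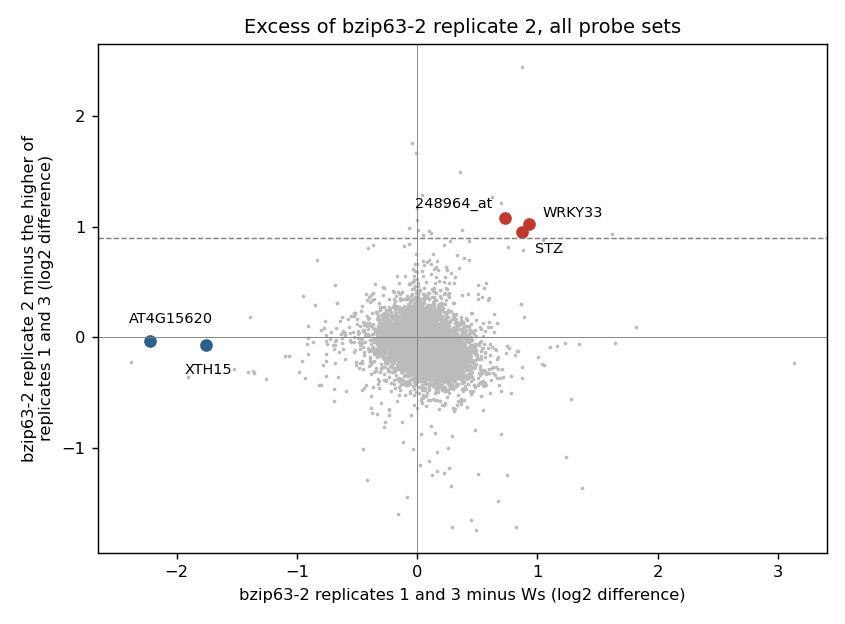
Each point is a probe set; the horizontal axis gives the mean of bzip63-2 replicates 1 and 3 minus the Ws mean and the vertical axis the excess of bzip63-2 replicate 2 over the higher of replicates 1 and 3 (both log2 differences). WRKY33, STZ and 248964_at (red) lie above the dashed line at 0.9 and right of 0, at 0.73 to 0.93, while AT4G15620 and XTH15 (blue) lie near 0 on the vertical axis.

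WRKY33 and STZ belong to a list of 33 genes of the early response to touch, wounding and cold, of which 7 had a named probe set. WRKY33 and STZ had to be separated between the genotypes, so the counts leave them out. For 4 of the other 5 genes the arrays labelled bzip63-2 lay wholly above the Ws arrays, against 6.81% of all probe sets, and their median log2 difference was 0.73, against 0.00 over all probe sets. Only STZ, WRKY53 and CML37 were named by the platform table. The others were named through the study's own list of changed genes, so their direction is not independent evidence. With STZ also left out, the platform table named WRKY53, wholly higher in bzip63-2, and CML37, which overlapped. ACS6, an enzyme of ethylene synthesis, had 3.84, 5.18 and 4.29 in bzip63-2, against 3.09, 2.84 and 3.12 in Ws. CBF2, a regulator of cold acclimation, had 4.19, 4.83 and 4.89 in bzip63-2, against 3.40, 3.37 and 3.16 in Ws. Replicate 2 was the highest mutant array for WRKY33, STZ, ERF105 and ACS6, but replicate 3 was highest for CBF2 and WRKY53. CML37, a calmodulin-like gene, was at or near the floor on all 6 arrays.

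Among the WRKY genes, 8 of 72 had a named probe set. WRKY53, a regulator of leaf senescence and defence, had 3.44, 3.63 and 3.80 in bzip63-2, against 2.98, 2.93 and 2.94 in Ws. The genotypes overlapped for the other 6, and of these WRKY42 and WRKY47 were at the floor on all 6 arrays. WRKY22, an early defence factor, had 3.27, 3.85 and 3.46 in bzip63-2, against 3.66, 3.61 and 3.92 in Ws. WRKY33 was thus the one WRKY gene named here that was at the floor in a single genotype. It was also named only through the study's list of changed genes.

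**Figure D4:**
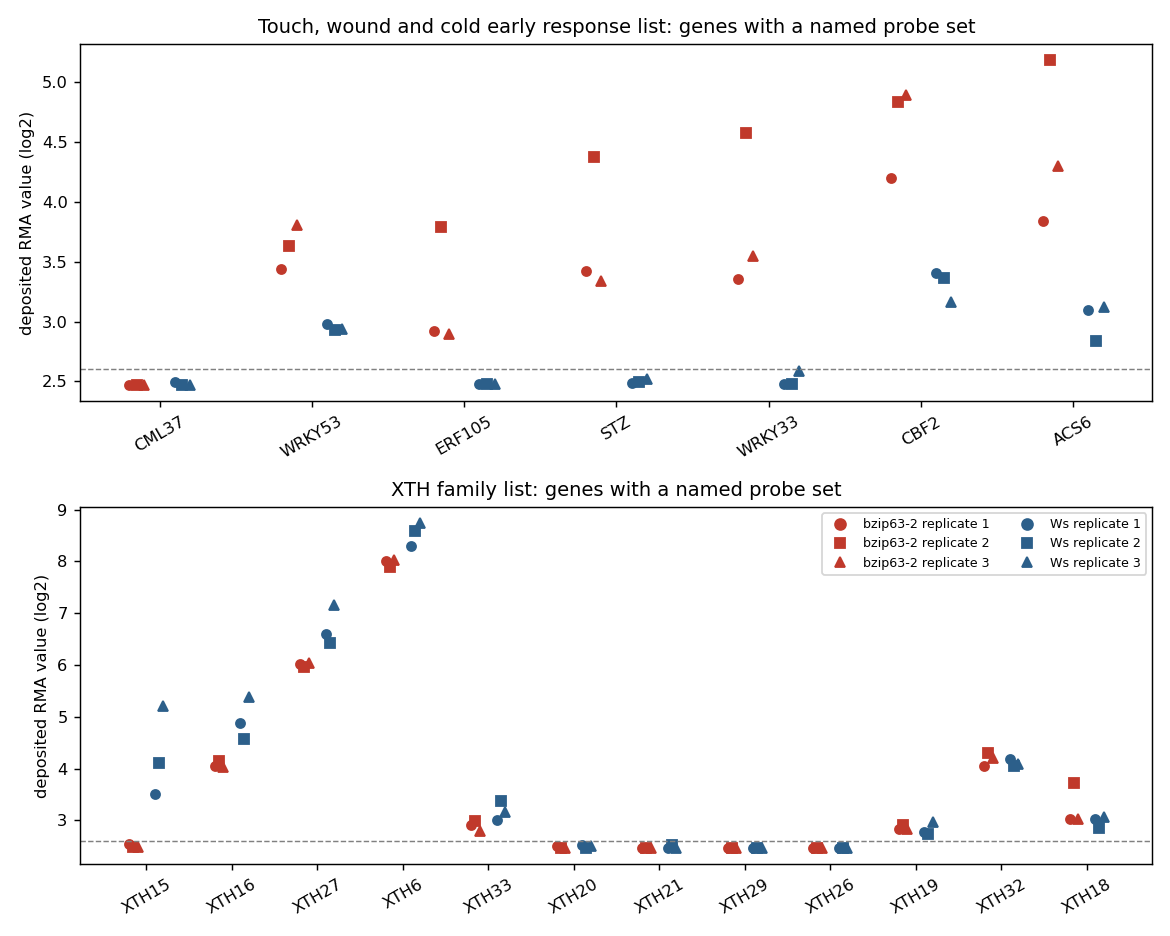
Deposited log2 values per array of the genes with a named probe set on the touch, wound and cold list (above) and the XTH list (below), ordered by log2 difference, with the arrays labelled bzip63-2 in red on the left of each gene and the Ws arrays in blue on the right. The dashed line is the limit of 2.6; STZ and WRKY33 lie below it in Ws and XTH15 in bzip63-2, while CML37, XTH20, XTH21, XTH26 and XTH29 lie below it in both.

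Features that did not enter the limits were few. All 5 probe sets had names ending in _at, the ending of 95.3% of all probe sets, which marks probes designed for a single transcript. Each of the 4 named genes had 1 probe set named here. Both genes at the floor in bzip63-2 have AT4G locus codes, with 191 protein-coding genes between them, whereas bZIP63 (AT5G28770), WRKY33 (AT2G38470) and STZ (AT1G27730) lie on other chromosomes. Among the 6 protein-coding genes on each side of AT4G15620, 5 had a named probe set, with log2 differences of -0.15 to 0.31. AT4G15640, 2 genes away, had values of 2.96, 3.12 and 3.03 in bzip63-2, against 3.08, 3.41 and 3.08 in Ws. The same windows gave log2 differences of -0.01 to 0.29 for 5 probe sets around WRKY33, -0.08 to 0.03 for 4 around STZ and 0.21 for 1 near XTH15. None of these neighbours was at the floor in a single genotype. IAGLU near AT4G15620 and AT4G14160, the neighbour named near XTH15, lay wholly higher in bzip63-2, as did 6.81% of all probe sets. The other neighbours overlapped. None of the 4 named genes was on the lists fixed here for pathogen defence, circadian clock, low energy response or bZIP and SnRK1 genes, of which 1 of 9, 7 of 31, 14 of 26 and 3 of 11 loci had a named probe set. WRKY33 was placed on the touch, wound and cold list and not on that of pathogen defence, and XTH15 was placed on the XTH list. The lists were drawn up here with earlier results known, so nothing is read from this absence.

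Across all 22746 probe sets, limma with Benjamini-Hochberg adjustment called 0 higher (0.0%) and 0 lower (0.0%) in bzip63-2 at an adjusted p under 0.05, while 984 higher and 465 lower probe sets had an unadjusted p under 0.05. No p is given for the 5 probe sets, since the compared values chose them. With 3 pooled samples per genotype, the number of arrays limits the precision.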

How the data were processed

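RNA of 3 pooled samples of bzip63-2 and 3 of Ws was measured on Affymetrix ATH1 arrays. The deposited log2 values, 1 per probe set and array, were made by the authors with RMA in Affymetrix Expression Console, per the labels; neither the tool's version nor a genome build is given in the sources used here, and the log2 scale was inferred from the range. The authors' methods then used affylmGUI.

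Here 64 control probe sets were left out, and 22746 were kept without a filter. Members were taken by the limits of 2.6 and 2.9 on every array. The members and the gene lists were chosen with earlier results of these data known. Means, SDs and differences (bzip63-2 minus Ws) were computed with pandas 2.3.3 in Python 3.11.15. All probe sets were fitted with limma 3.58.1 in R 4.3.3 (lmFit and eBayes, genotype only, checked on simulated data). The platform table gave 13513 probe sets 1 gene, gave 503 several and did not list 8730; 13436 received a locus through the RefSeq table (TAIR10.1), and 188 others through the pairs of probe sets and loci in the study's supplement. A probe set without such a name kept its ID.

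Every member with a named gene was named, with bZIP63, members of 11 lists (207 loci) and probe sets near the limits. Families by RefSeq name, the neighbour windows, AT4G27280 and the probe sets with an excess in replicate 2 were chosen after their values were seen. Fold changes and p-values in the study's supplement are the authors' own comparisons and were not used. Alternatives covered the limits, the use of means, normalization, probe set type, the prior, a filter on dim probe sets, leaving out each array and a replicate block. An exact permutation test of 3 arrays against 3 cannot give a p below 0.10. The 3 samples of a genotype were separate pools of plants. Sequences of promoters and proteins were not analysed here.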

Additional observations from a re-analysis of the deposited data

How the results depend on the processing

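The 2 probe sets at the floor in bzip63-2 and the 3 at the floor in Ws were all found again when quantile normalization was repeated and when arrays were shifted to a common 75th percentile, which gave 3 in the first direction. The 75th percentiles of the arrays were already 3.48 to 3.55, so these steps could move the values only a little and are a weak check. The percentiles were 3.48 to 3.53 for Ws and 3.54 to 3.55 for bzip63-2, so they differed by genotype. At an unadjusted p under 0.05, limma gave 984 higher and 465 lower before quantile normalization was repeated, and 965 and 803 after it. The shares of 6.81% wholly above and 3.23% wholly below come from the deposited values, so their imbalance may depend on normalization. The limits set the counts. With the lower limit tightened by 0.05, WRKY33 was lost (Ws replicate 3 was at 2.589), which left 2 in each direction. At the floor in Ws there were 8 probe sets with a lower limit of 2.7 and 0 with an upper limit of 3.5, where the 2 at the floor in bzip63-2 were kept. With both limits moved, to 2.7 and 2.8, there were 7 at the floor in bzip63-2 and 9 at the floor in Ws, an alternative chosen after seeing the data. With the mean of each genotype in place of every array there were 5 and 15. With one array left out, counts were 2 to 3 at the floor in bzip63-2 and 3 to 5 at the floor in Ws, the 5 without bzip63-2 replicate 3, with ERF105 and 1 unnamed probe set added. Leaving out an array can only add probe sets under this rule, so these counts do not show that the 5 are stable.

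Restricting limma to the 8242 probe sets with a mean above 3 gave 28 calls higher and 29 lower in bzip63-2. With one array left out it called 0 to 9 higher and 0 to 25 lower, the most without Ws replicate 3. With the replicate number as a block the counts were 0 and 0, and at an unadjusted p under 0.05 they were 1047 higher and 519 lower. Same-numbered arrays did not deviate together (correlations of -0.04, 0.02 and 0.05). The labels give a replicate number and no pairing, and these correlations cannot show whether samples were handled in pairs. Values at the floor hold only a bound, so signal over background limits the size of each difference.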

Other observations

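When the mean of each genotype had to meet the limits in place of every array, 12 further probe sets were at the floor in Ws. Replicate 2 of bzip63-2 was the highest mutant array for 10 of the 12. Among all probe sets whose bzip63-2 arrays differed, it was the highest for 30.6%. A mean can be raised by 1 high array, as for 256933_at with 2.51, 4.29 and 2.53 in bzip63-2. The rule thus favours such probe sets, and nothing is read from the 10. Only 4 of the 12 had a named gene, ERF105, AT1G30250, AT4G27652 and AT1G44830. AT4G27652 had log2 values of 2.95, 3.39 and 2.74 in the arrays labelled bzip63-2, against 2.58, 2.53 and 2.69 in the Ws arrays, and AT1G44830 had 2.65, 3.10 and 3.03 in bzip63-2 against 2.51, 2.53 and 2.63 in Ws. In the other direction 3 probe sets were added, the second probe set of At2g30600, AT3G54510 and AT1G62510. AT3G54510, annotated by the study as related to early dehydration response proteins, had 2.59, 2.54 and 2.53 in the arrays labelled bzip63-2, against 2.78, 3.19 and 3.09 in the Ws arrays.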
